A study of Mus musculus with 3 samples.

Results

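The genes described here encode proteins of cholesterol efflux, lipid transport and uptake, oxysterol formation and their control: Apoe, Apod, Abca1, Abcg1, Lrp1, Cyp27a1, Nr1h2, Nr1h3 and Pltp. All 9 were found by symbol in the merged count table, among 23473 genes with at least 1 count in the libraries used, and 8 of them lay among the 9907 genes with a mean of at least 5 counts per 1000000 (CPM) over the days. Nr1h3 lay under that minimum. The libraries came from cells of the testes of adult C57BL/6 male mice aged 8 to 12 weeks, sorted as SCA1+ and cKit- and cultured towards the Leydig fate. The cells were plated on Matrigel at 100000 cells per well, left to recover for 18 h in medium with 10% FBS, and expanded for 3 days with PdgfAA, PdgfBB and Fgf2 at 10 ng/ml each and 0.5 uM SAG, a Smoothened agonist. The differentiation medium kept these factors and added 5 mM LiCl2 and 10 uM DAPT, a gamma-secretase inhibitor that blocks Notch signalling. Single cells were captured by Drop-seq on days 4, 7 and 14 of the culture, with 1 library per day. By the study's account, the day 4 cells had seen only the expansion medium, without LiCl2 and DAPT, whereas the cells of days 7 and 14 had been in differentiation medium for 3 and 10 days. In every comparison with day 4, time in culture and the change of medium cannot be told apart.

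Cells discard cholesterol by handing it to lipoprotein particles. ABCA1 and ABCG1 are membrane pumps that move cholesterol out of the cell, APOE is the main apolipoprotein made outside the liver and gut, and PLTP moves phospholipid between particles. LRP1 takes APOE-bearing particles back up. CYP27A1 is a mitochondrial enzyme that hydroxylates the cholesterol side chain, and its oxysterol products activate the liver X receptors NR1H3 (LXRα) and NR1H2 (LXRβ), which bind DNA with RXR and switch on Abca1, Abcg1, Apoe and Pltp. In Leydig cells cholesterol has another fate, since CYP11A1 in the mitochondrion cuts it to pregnenolone, the first step of testosterone synthesis.

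The promoters of the apolipoprotein and the pump that were highest on day 14 are shown because both genes are textbook LXR targets. Sequences are RefSeq on GRCm38.p6, 250 bases up to the transcription start, read 5′ to 3′ on the gene's own strand. Both genes lie on the minus strand, Abca1 at chr4:53159896-53160145 and Apoe at chr7:19699189-19699438.
Abca1: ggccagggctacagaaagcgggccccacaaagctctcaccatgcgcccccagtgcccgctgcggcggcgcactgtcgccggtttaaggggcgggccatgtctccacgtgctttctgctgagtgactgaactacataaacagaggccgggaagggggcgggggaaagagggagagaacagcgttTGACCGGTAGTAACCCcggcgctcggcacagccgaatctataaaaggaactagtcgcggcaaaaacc
Apoe: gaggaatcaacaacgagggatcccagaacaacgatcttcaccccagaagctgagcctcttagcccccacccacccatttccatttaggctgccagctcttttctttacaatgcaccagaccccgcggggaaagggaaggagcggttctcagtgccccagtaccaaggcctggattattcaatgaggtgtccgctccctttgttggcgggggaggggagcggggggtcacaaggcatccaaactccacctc
Capitals mark the stretch closest to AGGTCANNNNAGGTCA, the layout of a binding site of LXR with RXR, in which the hexamer AGGTCA is repeated after 4 bases. Both strands were searched, and the Abca1 stretch matched on the opposite strand with 3 mismatches, from 67 to 52 bases before the start. A match at least as close occurred in 18.5% of 32851 promoters of this length. The Apoe window held no stretch with fewer than 5 mismatches, so none is in capitals, and 99.5% of promoters matched that well. Of the members, 8 had a promoter entry, and only the start nearest the annotated start of the gene was searched. Apoe had 3 starts among the entries and Nr1h3 had 2. None of the windows searched held AGGTCA itself on either strand, against 14.0% of all promoters. The letters of a window do not show whether a factor binds there, and sites outside these windows were not searched.

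In time order the merged table held 2980, 2171 and 973 cells, with 12677110, 11627440 and 5324400 counts of unique molecular identifiers (UMIs). The median cell held 2886.5, 3285 and 3272 UMIs. Ly6a, the gene of SCA1, stood at 523, 64.2 and 358 CPM, and Kit at 10, 1 and 11 UMIs in all. No barcode was shared between libraries, but 2834 of the 6124 barcodes (46.3%) shared their first 11 of 12 bases with another barcode of the same library. Pairs that shared them fell in the same cluster in 77.7%, 77.3% and 91.5% of cases on days 4, 7 and 14, against 21.1%, 20.4% and 47.6% of other pairs. The cause was not tested. Joining such barcodes left 4042 cells. Levels summed over a day do not depend on it, and differences in co-detection over all cells of a day are given with and without joining. The shares of cells with a UMI, the shares of day 14 cells with and without Cyp11a1 and the counts of cells with 3 transcripts are given for unjoined barcodes only. So are the differences within groups of cells.

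Apoe had the largest ratio of day 14 to day 4 among the members. The gene lies at chr7:19696109-19699188 on the minus strand (GENCODE M21, GRCm38). It stood at 88.4 CPM on day 4 (exact Poisson 95% interval 83.3–93.8), 181 CPM on day 7 (174–189) and 2154 CPM on day 14 (2115–2194). These levels rested on 1121, 2109 and 11470 UMIs. The day 14 level was 24.4 times that of day 4 (exact 95% interval of the ratio 22.9–25.9) and the day 7 level was 2.05 times that of day 4 (1.91–2.21). The 3 intervals did not overlap, and the larger step was that from day 7 to day 14, 11.9 times (11.3–12.4). An Apoe UMI was seen in 18.9% of cells on day 4, 29.4% on day 7 and 91.7% on day 14. With each cell thinned to 1500 UMIs the shares were 10.3%, 17.2% and 80.4%. All intervals cover counting error only, and with 1 library per day a difference between days cannot be told apart from a difference between libraries. In levels summed over a day, more cells of a type and more RNA per cell cannot be told apart either. Levels were not divided by transcript length, so they are compared between days and cells and not between genes.

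**Figure D1:**
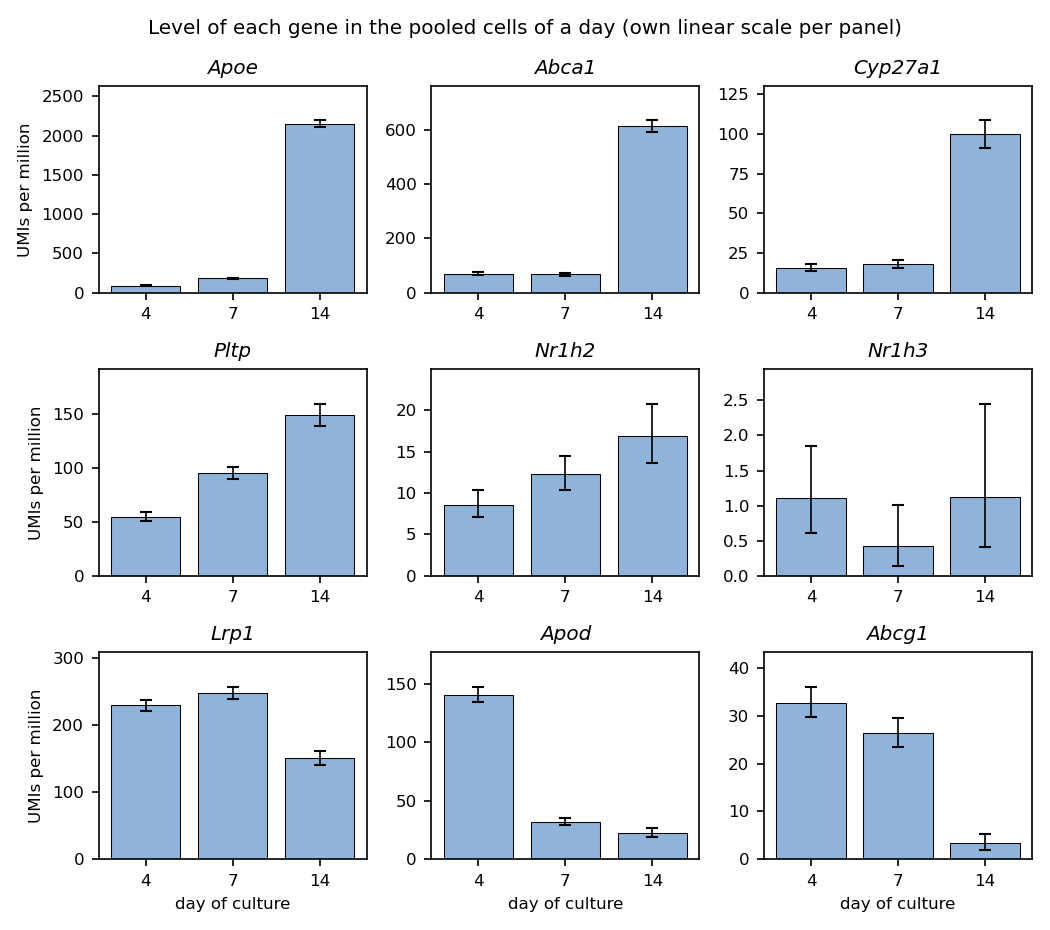
Levels of the 9 genes in UMIs per 1000000 (vertical axes, a linear scale of its own in each panel, from 0) on days 4, 7 and 14 (horizontal axes). Bars are the pooled cells of 1 library per day and error bars are exact Poisson 95% intervals. Apoe, Abca1 and Cyp27a1 are highest on day 14, and Apod and Abcg1 are highest on day 4.

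The cholesterol pumps moved in opposite directions. Abca1 (chr4:53030787-53159895, minus strand) was 69.9, 67.3 and 612 CPM on the 3 days. It did not change from day 4 to day 7 beyond counting error (ratio 0.964, 0.874–1.06) and was 8.76 times higher on day 14 than on day 4 (8.13–9.44). Abcg1 (chr17:31057675-31117988, plus strand) was 32.8 CPM on day 4 and 26.5 CPM on day 7, and on day 14 it was 3.38 CPM, from only 18 UMIs. Its day 14 level was 0.103 times that of day 4 (0.0605–0.165). An Abcg1 UMI was seen in 332 of 2980 cells on day 4 and in 12 of 973 on day 14. Of its 18 UMIs on day 14, 5 (27.8%) lay in the 7 cells with macrophage marker UMIs described at the end.

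Cyp27a1, the oxysterol-producing enzyme, had the same order of days as far as counting error allowed. The gene lies at chr1:74713574-74737892 on the plus strand. It was 15.6, 18.1 and 99.7 CPM on days 4, 7 and 14, and day 14 was 6.39 times day 4 (5.41–7.56). The difference of day 7 from day 4 lay within counting error (ratio 1.16, 0.948–1.41). Pltp (chr2:164839518-164857711, minus strand) was higher at each step, with 54.8, 95.2 and 149 CPM, and its day 14 level was 2.72 times that of day 4 (2.46–3.02). Pltp overlaps Ctsa, the gene of the lysosomal protective protein cathepsin A, on the opposite strand. Ctsa stood at 76.6, 199 and 386 CPM, and since the strand setting of the counting is not given in the sources used here, reads of the overlap cannot be assigned with certainty.

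The receptors that sense oxysterols stayed low. Nr1h2 (chr7:44549616-44553951, minus strand) was 8.60, 12.3 and 16.9 CPM, and day 14 was 1.97 times day 4 (1.47–2.62), just under 2-fold. Nr1h3 (chr2:91184061-91202834, minus strand) was barely seen, with 14, 5 and 6 UMIs over the days. Its day 14 ratio of 1.02 had an interval of 0.321–2.83, so a 2-fold difference in either direction was not detectable at this depth.

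Lrp1 and Apod, the remaining members, were lower on day 14. Lrp1, the endocytic receptor (chr10:127538161-127621148, minus strand), was 229, 248 and 150 CPM, and day 14 was 0.656 times day 4 (0.606–0.710). Apod, a lipocalin that binds small lipids and is no structural relative of APOE, lies at chr16:31296192-31314808 on the minus strand and was 141, 32.0 and 22.5 CPM. Most of its fall came between day 4 and day 7 (ratio 0.228, 0.203–0.255), when Abca1 and Cyp27a1 did not differ beyond counting error.

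Counted by a 2-fold difference, 4 of the 8 members tested were higher on day 14 than on day 4, namely Apoe, Abca1, Cyp27a1 and Pltp, against 12.9% of all 9907 genes. Apod and Abcg1 were lower by 2-fold, against 16.1% of all genes. From day 7 to day 14, 3 members were higher (9.33% of all genes) and Abcg1 was lower (15.2%). From day 4 to day 7 only Apoe was higher (2.82%) and only Apod lower (2.35%). The Apoe call of day 7 over day 4 was lost with TMM (1.94 times) and with median-ratio scaling (1.90 times), while Apod stayed lower by 2-fold under both. The median log2 ratio over the members tested was 1.16 for day 14 over day 4, and over all genes it was -0.10.

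Genes of the pathway were read from lists chosen with earlier results of these data known. The lists also hold members, so their counts are not independent of the member counts above. Over all 9907 genes, 12.9% were higher by 2-fold on day 14 than on day 4 and 16.1% were lower, and each list count below stands beside these shares. Among apolipoproteins and lipoprotein lipases, 4 of 6 tested genes were higher by 2-fold on day 14 than on day 4 and 2 were lower. The members Apoe and Pltp were among the higher genes and the member Apod among the lower. Clu, which encodes the secreted chaperone clusterin (apolipoprotein J), was 82.6, 479 and 612 CPM on days 4, 7 and 14, with its larger step between days 4 and 7. Lipg, endothelial lipase, was 205, 255 and 562 CPM. Lpl, lipoprotein lipase and an LXR target, was 99.2, 26.7 and 22.7 CPM, with its larger step, like that of Apod, between days 4 and 7.

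Of 16 sterol transporters tested, 7 were higher and 1, Abcg1, was lower. Gramd1b, an endoplasmic reticulum protein that takes up cholesterol from the plasma membrane, was 17.2, 16.9 and 313 CPM, or 18.2 times higher on day 14 than on day 4 (15.8–21.1). Npc2, which lifts cholesterol out of lysosomal particles, was 1128, 1676 and 3204 CPM. Star, which brings cholesterol into the mitochondrion, was 197, 362 and 1012 CPM. Abca2, Abca7 and Stard5 completed the higher group with Abca1, and Abca2 and Abca7 stayed under 20 CPM on every day.

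Of 9 lipoprotein receptors and their chaperone, 4 were higher and 1 was lower. Scarb1, the receptor that takes cholesterol ester from high-density lipoprotein, was 53.3, 52.5 and 183 CPM. Lrpap1, the chaperone that guards LRP1 and its relatives against early ligand binding, was 111, 135 and 444 CPM, while Lrp1 itself was lower. Lrp10 was 45.8, 66.1 and 112 CPM, and Cd36, a fatty acid and oxidised lipoprotein receptor, had 9, 7 and 91 UMIs. Lrp8, an APOE receptor, was the gene that was lower, with 154 of 12677110 UMIs on day 4 and 26 of 5324400 on day 14. Since day 14 held fewer UMIs in all, the Lrp8 counts alone overstate the fall.

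The LXR targets did not move as 1 group. Of 12 tested, 4 were higher on day 14 than on day 4, 2 were lower and 6 were within 2-fold. Over all 9907 genes 12.9% were higher and 16.1% were lower, so the lower count was near the share of all genes. The higher ones were the members Apoe, Abca1 and Pltp, already counted above, and Smpdl3a, a secreted phosphodiesterase that was 5.05, 7.74 and 48.1 CPM. The lower ones were Abcg1, also a member, and Lpl. Srebf1, Mylip, Lpcat3, Scd1, Scd2 and Fasn, most of them genes of fatty acid and phospholipid metabolism, had ratios between 1.09 for Scd1 and 1.48 for Lpcat3. The median log2 ratio of the LXR targets was 0.35. Among 10 tested genes of LXR, RXR and their cofactors none was higher and 1 was lower, against 12.9% and 16.1% of all genes.

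Genes of cholesterol supply moved less than the list named for steroid synthesis. Of 17 SREBP2 targets, which make or import cholesterol, 4 were higher and none was lower, with a median log2 ratio of 0.49. Among them were the synthesis enzymes Mvd at 3.55 times, Dhcr7 at 3.02 times and Fdps at 2.25 times. None of 7 genes of cholesterol ester storage passed 2-fold, and all of these lay between 0.985 times for Plin2 and 1.75 times for Plin3. The list named for steroid synthesis also holds Insl3 and Nr5a1, which are Leydig markers and not enzymes of the pathway. Of its 10 tested genes 8 passed 2-fold upwards, and the list had a median log2 ratio of 3.56. Cyp11a1, which serves as a partner gene in the single cells, was 19.5, 56.8 and 2089 CPM.

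**Figure D2:**
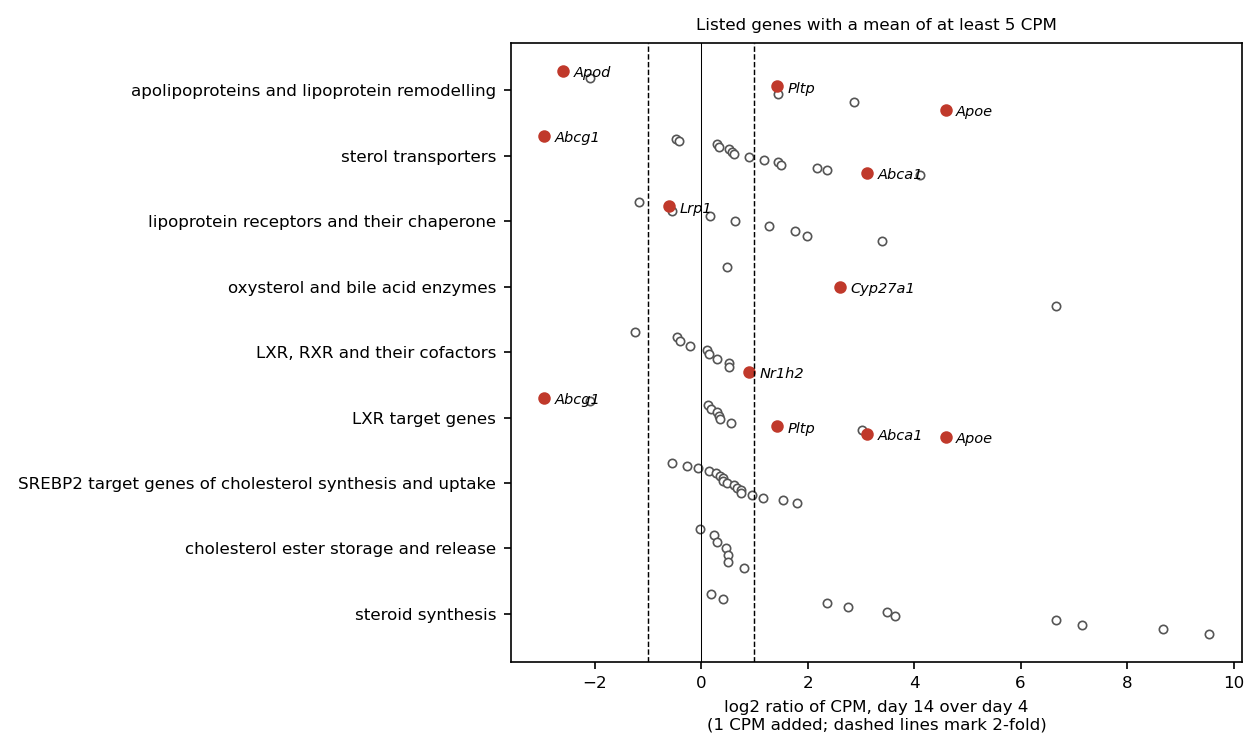
Log2 ratio of CPM of day 14 over day 4 (horizontal axis, 1 CPM added) for the genes of 9 lists (rows) with a mean of at least 5 CPM. Each circle is a gene, red circles are the members, and dashed lines mark 2-fold. Genes of the steroid synthesis list, which also holds Insl3 and Nr5a1, reach farthest to the right, and the ester storage genes lie between the dashed lines.

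The cells were clustered without the members and without the genes of the lists, so that levels in a cluster did not choose it. On day 14 nearly all cells fell in 2 clusters. One of 450 cells was called Leydig-like, since 8 of 8 Leydig markers, among them Insl3, Cyp17a1 and Hsd3b1, stood above the other cells. The other, of 499 cells, got no cell type name and is called the Slc38a5/Gpx3 cells after its leading genes, an amino acid transporter and a secreted glutathione peroxidase. The Slc38a5/Gpx3 cells were the only cluster with at least 50 cells on every day, with 83 on day 4 and 67 on day 7. In all, 14 groups of 1 cluster on 1 day had at least 50 cells.

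Both day 14 groups were rich in Apoe. It stood at 2477 CPM in the Slc38a5/Gpx3 cells (2404–2552) and at 2013 CPM in the Leydig-like cells (1965–2061), a ratio of Leydig-like over Slc38a5/Gpx3 cells of 0.812 (0.782–0.844). Without the barcodes that share bases the ratio was 0.747. At 1500 UMIs per cell, 82.3% of Slc38a5/Gpx3 cells and 79.1% of Leydig-like cells had an Apoe UMI. The next highest Apoe group was 1432 CPM, and the lowest was 47.5 CPM in the day 4 cells led by Hbegf and Ankrd1, where 7.58% of thinned cells had an Apoe UMI.

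The other members divided the day 14 groups more sharply. Abca1 was 809 CPM in the Leydig-like cells and 271 CPM in the Slc38a5/Gpx3 cells, a ratio of 2.99 (2.71–3.30), and the Leydig-like cells held 84.8% of the Abca1 UMIs of day 14 with 64.2% of all its UMIs. Cyp27a1 went the other way, with 56.4 CPM in the Leydig-like and 178 CPM in the Slc38a5/Gpx3 cells (ratio 0.317, 0.263–0.380). Pltp was 92.1 against 243 CPM (0.379, 0.327–0.440), and Lrp1 was 122 against 204 CPM (0.599, 0.519–0.692). Apod was 12.3 against 42.3 CPM. Abcg1 was at 3 UMIs in the Leydig-like cells and 10 in the Slc38a5/Gpx3 cells. Nr1h2 did not differ beyond counting error, at 17.3 and 16.6 CPM (ratio 1.04, 0.657–1.69).

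**Figure D3:**
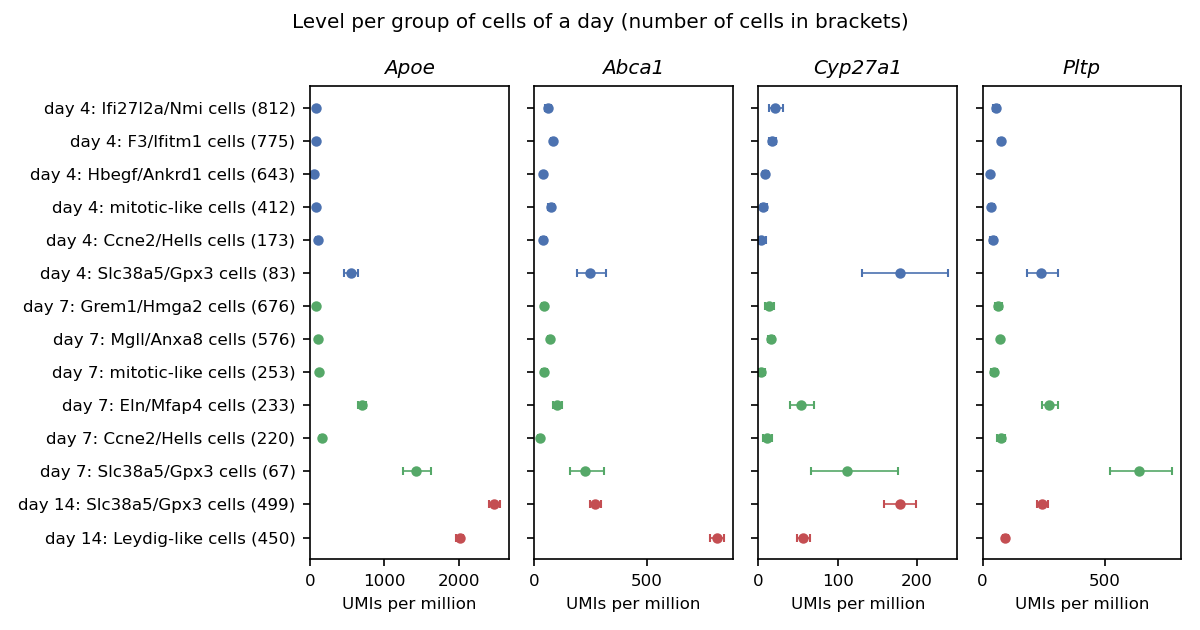
CPM of Apoe, Abca1, Cyp27a1 and Pltp (horizontal axes, linear from 0) in the 14 groups of cells of 1 cluster and day (rows, with the number of cells; blue day 4, green day 7, red day 14). Points are pooled cells and bars are exact Poisson 95% intervals. Apoe is high in both day 14 groups, Abca1 is highest in the Leydig-like cells, and the day 7 Slc38a5/Gpx3 cells hold the highest Pltp.

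Between the Slc38a5/Gpx3 cells of the 3 days, the members parted. The cluster groups cells of separate libraries by likeness, and no cells were traced from 1 day to the next. Apoe was 544 CPM on day 4, 1432 on day 7 and 2477 on day 14. Day 14 was 4.55 times day 4 (3.84–5.43), a smaller ratio than in all cells. Abca1 was 246, 223 and 271 CPM, and its day 14 ratio of 1.10 had an interval of 0.842–1.46. Cyp27a1 was 179, 112 and 178 CPM (ratio 0.997, 0.727–1.39). Pltp was 238, 639 and 243 CPM, so it peaked on day 7 here, 2.68 times above day 4 (1.93–3.75), whereas in all cells it was highest on day 14. Apod was 111, 229 and 42.3 CPM, with the same peak. Lrp1 was 278, 180 and 204 CPM.

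The cells of this cluster were few on day 4 but already stood above the other cells in several of the members. They made up 1.98% of the UMIs of day 4 but held 22.7% of its Cyp27a1, 12.2% of its Apoe and 8.63% of its Pltp UMIs. Against all other cells of day 4, Cyp27a1 was 14.5 times higher in them (10.2–20.4), Apoe 6.88 times (5.71–8.23), Pltp 4.67 times (3.52–6.09) and Abca1 3.72 times (2.82–4.81). Nr1h2 was 3.39 times higher (1.33–7.24), from only 7 UMIs in these cells. Apod (ratio 0.788, 0.522–1.14) and Lrp1 (1.22, 0.947–1.54) did not differ beyond counting error, and neither did Cyp11a1 (ratio 0.813, 0.220–2.11, from 4 UMIs). On day 7 they stood above the other cells in Apoe by 8.75 times (7.60–10.0), Apod by 7.85 times (5.43–11.05), Pltp by 7.29 times (5.90–8.94), Cyp27a1 by 6.67 times (3.87–10.8) and Abca1 by 3.43 times (2.38–4.79). Lrp1 was 0.723 times the level of the other cells (0.483–1.04), and Abcg1 had 0 UMIs in them, a ratio of at most 0.857. Cyp11a1 was then 8.30 times higher in them too (6.37–10.7), at 428 CPM.

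A separate day 7 cluster of 233 cells, led by Eln, Mfap4 and Fmod, genes of elastic fibres and matrix, also stood high in Apoe, with 694 CPM and 33.2% of the Apoe UMIs of day 7 from 8.68% of its UMIs. Pltp was 272 CPM in these cells and Cyp27a1 53.5 CPM, while Abca1 was 100.1 CPM and Cyp11a1 11.9 CPM. Day 4 held only 4 cells of this cluster and day 14 only 6.

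Over the 14 groups, the 5 genes whose log2 level followed Apoe most closely, among 3399 genes with a mean of at least 50 CPM, included Glb1 (Pearson r 0.982), C7 (0.980), Col6a1 (0.979) and Lrpap1 (0.974). Glb1 encodes lysosomal beta-galactosidase, C7 a complement component, and Col6a1 a chain of collagen VI. Among the members r was 0.862 for Cyp27a1, 0.859 for Abca1, 0.812 for Pltp, 0.752 for Nr1h2, -0.40 for Lrp1, -0.10 for Apod and -0.91 for Abcg1. These values are descriptions over groups that share 3 libraries, and groups of a library share its depth.

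Co-detection asks whether the same cell holds 2 transcripts. Since a deeper cell holds more of every gene, each cell was thinned to 1500 UMIs, which kept 2227, 1742 and 794 cells of days 4, 7 and 14. The loss was uneven between groups. On day 14 it took 160 of 499 Slc38a5/Gpx3 cells but 14 of 450 Leydig-like cells, and on day 4 it took 548 of 812 Ifi27l2a/Nmi cells. Shares over all thinned cells of a day therefore lean towards groups with deeper cells. On day 4, 34 of 229 cells with an Apoe UMI (14.8%, Clopper-Pearson 95% interval 10.5–20.1%) also held Abca1, against 8.21% of the 1998 without (7.04–9.50%). On day 7 the shares were 14.0% (10.3–18.5%) and 7.97% (6.62–9.49%). In these draws Abca1 was seen more often beside Apoe on both early days. With shares expected over all possible draws the differences were 5.37 and 5.58 points, and with barcodes joined 5.15 and 5.64 points. Leaving out the cells ranked in the top 6% by doublet score, the day 4 difference was 1.92 points and the intervals overlapped (7.22–15.8% and 7.77–10.5%). At 3000 UMIs per cell it was 2.71 points, again with overlapping intervals (13.9–24.3% and 14.0–18.2%). Within the cell groups of day 4 the difference expected over all draws ranged from -0.81 points in the 620 Hbegf/Ankrd1 cells to 15.5 points in the 64 Slc38a5/Gpx3 cells, and it was 1.34 points in the 765 F3/Ifitm1 cells. Within the groups of day 7 it ranged from 0.680 to 5.26 points.

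Cyp27a1 and Cyp11a1 were rare on these days. Cyp27a1 was in 9 of 229 cells with Apoe on day 4 (3.93%, 1.81–7.33%) and in 2.20% of those without (1.60–2.95%). On day 7 it was in 2.68% of cells with Apoe and 2.77% without, and over all possible draws in 4.43% and 2.27%. Cyp11a1 was in 5 of 229 cells with Apoe on day 4 (2.18%, 0.713–5.02%) and in 5 of 1998 without (0.0813–0.583%). On day 7 it was in 13 of 299 cells with Apoe (4.35%, 2.34–7.32%) and 17 of 1443 without (1.18%, 0.688–1.88%). With barcodes joined the Cyp11a1 intervals overlapped on both days, at 0.298–4.16% and 0.0982–0.704% on day 4 and at 1.65–6.70% and 0.450–1.72% on day 7. Joined, Cyp27a1 was in 6.25% of cells with Apoe (3.37–10.5%) and 2.06% without (1.43–2.86%) on day 4, and in 3.98% and 2.15% on day 7.

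On day 14 the intervals of cells with and without Apoe overlapped for each partner gene. Abca1 was in 45.6% of the 638 cells with Apoe (41.7–49.6%) and in 53.2% of the 156 without (45.1–61.2%). Cyp11a1 was in 45.6% (41.7–49.6%) and 52.6% (44.4–60.6%), and Cyp27a1 in 13.3% (10.8–16.2%) and 12.8% (8.01–19.1%). Expected over all draws, the differences were -2.91 points for Abca1, -3.19 for Cyp11a1 and 1.67 for Cyp27a1, and with barcodes joined -2.14, -6.14 and 3.05 points. Unthinned, every partner was more frequent in cells with Apoe, by 13.1, 5.77 and 14.4 points. For Cyp11a1 the thinned difference was also positive, 2.74 points, without high doublet scores, and 1.86 points without cells with macrophage markers. Thinned to 3000 UMIs, it was -10.4 points, and -10.9 points with barcodes joined. For Abca1 these values were -14.0 and -12.9 points, and for Cyp27a1 1.86 and 1.97 points. The intervals overlapped in each case, with only 41 cells without Apoe, and 54 when joined.

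**Figure D4:**
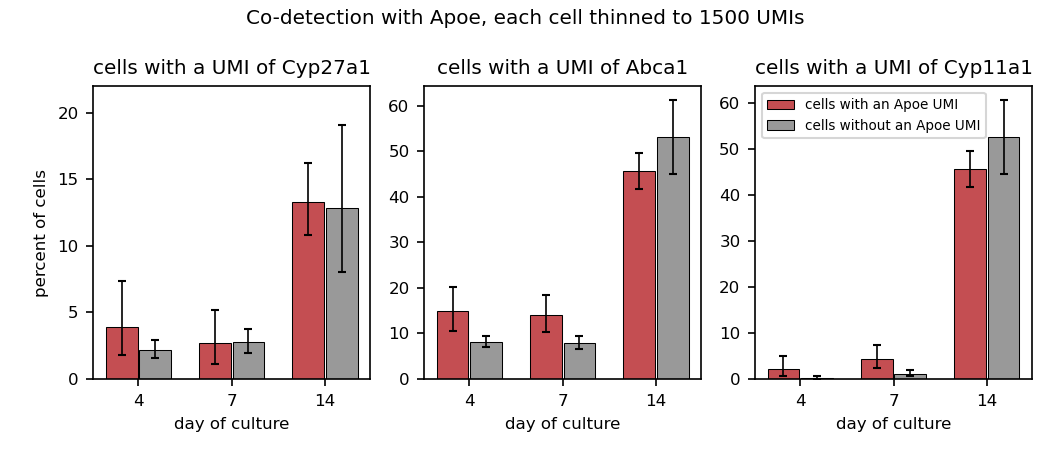
Percent of cells with a UMI of Cyp27a1, Abca1 or Cyp11a1 (vertical axes, from 0) among cells with an Apoe UMI (red) and without (grey) on days 4, 7 and 14, each cell thinned to 1500 UMIs. Error bars are exact Clopper-Pearson 95% intervals. Abca1 is more frequent beside Apoe on days 4 and 7, and the intervals of the 2 bars overlap for every partner on day 14.

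Read from the other side, 78.0% of the 373 day 14 cells with a Cyp11a1 UMI held Apoe (73.5–82.1%), and so did 82.4% of the 421 cells without (78.4–85.9%). The Apoe level differed little with the Cyp11a1 count of the cell, at 2423 CPM in cells with 0 Cyp11a1 UMIs, 2123 CPM with 1 to 2 and 2262 CPM with 3 or more. Abca1 was 348, 564 and 959 CPM over the same classes, Cyp27a1 152, 73.5 and 47.8 CPM, and Pltp 203, 157 and 78.8 CPM. With barcodes joined, Abca1 was 334, 622 and 1028 CPM and Pltp 215, 165 and 68.8 CPM, in the same order. Cyp27a1 was then 126, 149.8 and 38.7 CPM, so the middle class no longer lay below the class with 0, and the class with 3 or more was lowest both ways.

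**Figure D5:**
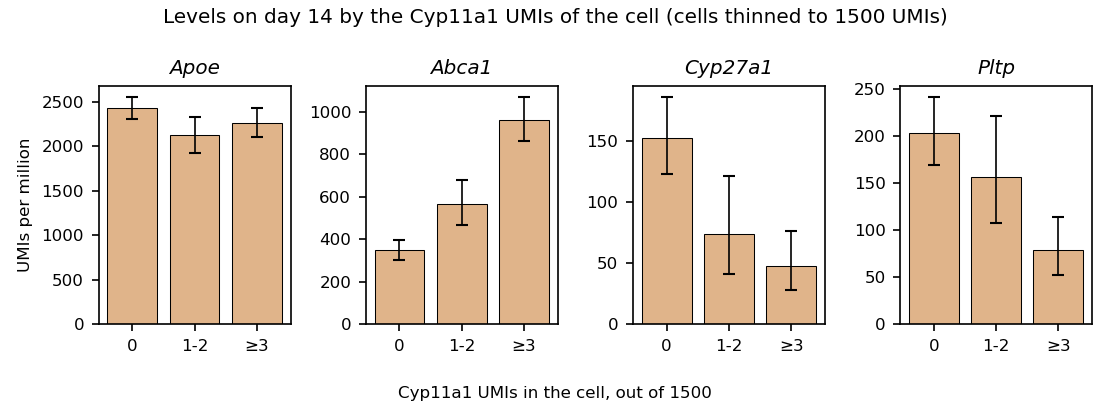
CPM of Apoe, Abca1, Cyp27a1 and Pltp on day 14 (vertical axes, from 0) in cells with 0, 1 to 2, or 3 or more Cyp11a1 UMIs out of 1500 (horizontal axes). Bars are pooled thinned cells and error bars are exact Poisson 95% intervals. Apoe is similar in the 3 classes, Abca1 is highest and Cyp27a1 and Pltp are lowest in the class with 3 or more. The middle bar of Cyp27a1 depends on the barcodes being unjoined, since it is 149.8 CPM when they are joined.

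In single cells Abca1 was in 61.7% of day 14 cells with Cyp11a1 (56.5–66.6%) and in 34.2% of those without (29.7–39.0%). Cyp27a1 was in 6.97% (4.60–10.0%) and 18.8% (15.1–22.8%). Both differences were smaller within the 2 groups of cells. Expected over all draws, the Abca1 difference was 23.8 points in all day 14 cells, 7.37 points within the Leydig-like cells and 6.89 points within the Slc38a5/Gpx3 cells. The Cyp27a1 difference was -9.12 points in all cells and -2.47 and -4.69 points within the groups. With barcodes joined, the differences in all day 14 cells were 25.8 points for Abca1 and -10.8 points for Cyp27a1. A cell with Apoe, Abca1 and Cyp11a1 together made up 21.5% of the 794 cells (18.7–24.6%), and one with Apoe, Cyp27a1 and Cyp11a1 together 2.64% (1.64–4.01%).

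Some transcripts that were high in the Leydig-like cells were also counted in the Slc38a5/Gpx3 cells of day 14, where 17.1% of thinned cells held Cyp11a1. The ratio between the groups was not the same for all of them. Leydig-like over Slc38a5/Gpx3 cells, it was 28.3 for Cyp17a1 (22.7–35.7), 17.5 for Hsd3b1 (15.5–19.9), 16.1 for Cyp11a1 (14.4–17.9), 6.05 for Insl3 (5.61–6.53) and 2.79 for Star (2.59–3.01). In the Slc38a5/Gpx3 cells Cyp11a1 stood at 428 CPM on day 7 and at 196 CPM on day 14. The part of RNA released from other cells in the counts of the Slc38a5/Gpx3 cells was not tested.

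Macrophages also make Apoe, Abca1 and Nr1h3, and markers of macrophages were followed for that reason. Of 12 markers, 11, 9 and 11 had a UMI on days 4, 7 and 14, with summed levels of 11.6, 28.8 and 241 CPM. Only 7, 8 and 7 cells held 2 or more of these UMIs, and they held 1.12% of the Apoe and 1.35% of the Abca1 UMIs of day 14. Without them Apoe on day 14 was 2162 CPM and Abca1 613 CPM.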

How the data were processed

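Libraries of 3 culture days, 1 per day, were read as deposited by the authors as raw UMI counts per gene and cell barcode, without normalization. Per the labels, the genome build is GRCm38 and the tools are STAR 2.5.2a, Picard 2.6.0 and SAMtools 1.2, whereas the methods text names another STAR release, and the annotation behind the counts is not given in the sources used here. The merged table of cells that passed the study's filter was used, with 594 to 80524 UMIs per cell. Its 495 columns that belong to no sample here were not used, and its entries did not differ from the counts per day. Levels are summed UMIs as CPM with exact Poisson intervals, ratios carry exact conditional binomial intervals, shares carry exact Clopper-Pearson intervals, and a count of 0 allows 3 counts. Log2 ratios have 1 CPM added. Genes with a mean of at least 5 CPM were counted as past a 2-fold difference or not, as a description. Cells are not replicates and there is 1 library per day, so no test was made. Clusters came from Seurat 5.3.0 in R 4.3.3 (2000 variable genes, 20 components, resolution 0.8) without the members and list genes. Thinning drew 1500 UMIs per cell without replacement (seed 1), and shares expected over all draws are hypergeometric. Doublet scores came from the Scrublet method in scanpy 1.11.5, no doublet was removed from the main values, and TMM factors came from edgeR 4.0.16. The remaining steps ran in Python 3.11.15, using pandas 2.3.3 for tables, numpy 2.4.6, scipy 1.17.1 for intervals and matplotlib 3.10.9 for the plots. Positions are GENCODE M21, and promoters are RefSeq. Scripts were tested on simulated data.

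The members and the gene lists were chosen with earlier results of these data known. The text names the members, Cyp11a1, genes of the lists, and the 5 genes most like Apoe (some genes that these rules name are not reported here) over groups of at least 50 cells (log2 of CPM with 10 added). Overlapping genes on the other strand could not be separated for Pltp and Lrp1, and same-strand neighbours overlap Abcg1, Nr1h3 and Cyp11a1. Alternatives were other cell filters, scalings, weights, depths, pseudocounts, cluster settings and gene minimums. Added after the data were seen were leaving out or joining barcodes that share 11 bases, shares within groups, and shares over all draws.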

Additional observations from a re-analysis of the deposited data

Results flagged for a closer look

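Barcodes of the day tables that the merged table leaves out entered no main comparison, only the alternative without a cell filter. For 8 of their levels the lower limit of the interval lay above the level in the cells kept. There were 320 on day 4, 229 on day 7 and 327 on day 14. On day 4, Lrp1 was 379 CPM in them against 229 CPM in the cells kept, and Cyp27a1 43.5 CPM, from 7 UMIs, against 15.6 CPM, where the intervals overlapped (17.5–89.7 and 13.5–18.0). On day 7, Apoe was 393 CPM against 181 CPM, Abca1 200.5 CPM against 67.3 CPM, Lrp1 752 CPM against 248 CPM, and Cyp27a1 58.5 CPM, from 7 UMIs, against 18.1 CPM. On day 14, Abca1 was 1227 CPM against 612 CPM, and Cyp11a1 2568 CPM against 2089 CPM. In the other direction, Cyp11a1 on day 7 had 0 UMIs in the barcodes left out (0–30.8 CPM) against 56.8 CPM in the cells kept. With 1 library per day, no comparison of replicates could be made.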

How the results depend on the processing

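No paired analysis was possible because each day had 1 library and no result came from a test. No ratio between days past 2-fold changed direction, but differences in co-detection changed sign as given here. The log2 ratio of Apoe on day 14 over day 4 (4.59) was 4.49 with TMM, 4.51 with median-ratio scaling and 4.46 with 10 CPM added. On day 14 over day 7 (3.56) it was 3.42 with equal weight per cell, 3.50 with thinned cells and 3.50 with 10 CPM added, and on day 7 over day 4 (1.03) it was 0.92 with median-ratio scaling. For day 7 over day 4, 0 members were higher by 2-fold with TMM and 0 with median-ratio scaling against 1, and 2 were lower with no filter on low values against 1. Without thinning, the shares of partner genes in cells with minus without Apoe were 7.76 (Cyp27a1) and 13.3 points (Abca1) on day 4, 8.20 and 16.2 points on day 7, and 14.4, 13.1 and 5.77 points (Cyp11a1) on day 14. At 3000 UMIs per cell the day 7 differences were 4.88 and 12.1 points, and with barcodes joined 7.82 and 14.3 points, whereas Abca1 on day 4 was 2.71 points, and 3.90 joined, against 6.64. For Cyp27a1 on day 7 (-0.096 points) another draw gave 3.55, leaving out high doublet scores 2.87 and leaving out cells with macrophage markers 2.92 points. Without high doublet scores Abca1 on day 4 was 1.92 points against 6.64, and Cyp11a1 on day 14 was 2.74 points against -6.95. The Apoe ratio of Leydig-like to Slc38a5/Gpx3 cells was 0.747 without shared barcodes against 0.812. The causes were not tested. Counts of all genes past 2-fold followed the minimum level, since more genes were counted: day 14 over day 4 gave 1275 higher and 1598 lower, 6256 and 5863 with no minimum, and 670 and 994 at 20 CPM. Day 14 over day 7 gave 924 and 1507, then 5854 and 5358, and 504 and 902. Day 7 over day 4 gave 279 and 233, then 3800 and 3800, and 116 and 105, and the higher share of calls was 54.5%, against 42.7% with median-ratio scaling.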
